A study of Mus musculus with 24 samples.

Results

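The genes described here encode subunits of the mitochondrial oxidative phosphorylation system, and they were taken from the count table by name. Symbols had to begin with Nduf followed by a, b, c, s or v and a digit, with Uqcr, with Cox and a digit from 4 to 8, or with Atp5, or had to be Sdha, Sdhb, Sdhc or Sdhd. A mean of at least 1 CPM (counts per 1e6 counts of the library) over the 24 libraries was also required. Of 24421 genes in the table, 84 matched by name and 79 passed. The name rule used no difference between genotypes.

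Cortex RNA had been sequenced from mice 7.5 months old, with 1 library per mouse. Every mouse carried 5xFAD, human transgenes with familial Alzheimer's disease mutations that drive amyloid deposition, and no mice without 5xFAD were analysed here. The study asked how PLCG2, a phospholipase that signals below the microglial receptor TREM2, shapes the response to amyloid. Alongside 5xFAD, 6 mice were wild type for Trem2 and Plcg2 (WT), 6 were Trem2 knockouts (Trem2KO), 6 were homozygous Plcg2 knockouts (Plcg2KO) and 6 were labelled heterozygous for the Plcg2 knockout (Plcg2HET). Sexes were balanced at 3 and 3 except in Plcg2KO, which had 4 males. Mice carry the genotype and the labels' own codes as names, where M or F gives the sex.

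Oxidative phosphorylation passes electrons from NADH (complex I) or succinate (complex II) through complex III to oxygen at complex IV, and the proton gradient that this builds drives ATP synthase, complex V. Neurons of the cortex depend on it for most of their ATP. Complex II is encoded in the nucleus alone and is also an enzyme of the tricarboxylic acid cycle, whereas the other complexes combine nuclear and mitochondrially encoded subunits.

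The 79 genes lay on 19 chromosomes. Complex I accounted for 34 of them, 7 core subunits of its catalytic heart and 27 accessory subunits. Complex II accounted for 4, complex III for 8, complex IV for 16 (Ndufa4, Ndufa4l2 and Cox7a2l were placed there) and complex V for 15. The other 2, Atp5s and Atp5sl, match the name rule without being subunits: Atp5s (Dmac2l in RefSeq) is the coupling factor B gene, and the human relative of Atp5sl takes part in building complex I. The 13 mitochondrially encoded subunit genes were not analysed here. Of the 5 rows under the threshold, Cox7a1 fell just outside it at 0.901 CPM, while Cox6b2 at 1.06 CPM and Cox4i2 at 2.05 CPM were just inside. Cox8b (0.143 CPM), Cox7b2 (0.118 CPM), Cox8c (0.00132 CPM) and Ndufs5 (listed at 0) were lower still.

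Promoters were read as the 250 bases upstream of the start in RefSeq (GRCm38.p6), 5′ to 3′ on the gene's own strand, and 65 of the 79 genes had an entry. They were searched on both strands for exact matches to GCGCATG or GCGCACG (NRF1, a factor known to act on respiratory chain genes), CCGGAAG (the ETS family, which includes GABP) and AAGATGGCG (YY1). The NRF1 letters stood in 14 of 65 promoters (21.5%) against 9.002% of the 18084 promoters of all genes with an entry, the ETS letters in 11 (16.9%) against 9.23%, and the YY1 letters in 0 against 0.730%. At least 1 of these motifs stood in 21 (32.3%) against 17.5%, at a median GC content of 56% against 55.6%. The following 3 promoters are shown because each belongs to a gene described below and carries a motif, printed in capitals. Sdhd was at chr9:50603850-50604099 (minus strand), Cox6a1 at chr5:115348959-115349208 (minus strand) and Uqcrh at chr4:116075071-116075320 (minus strand). In Cox6a1 the NRF1 letters were matched on both strands at 1 place, where the matches overlap.
Sdhd: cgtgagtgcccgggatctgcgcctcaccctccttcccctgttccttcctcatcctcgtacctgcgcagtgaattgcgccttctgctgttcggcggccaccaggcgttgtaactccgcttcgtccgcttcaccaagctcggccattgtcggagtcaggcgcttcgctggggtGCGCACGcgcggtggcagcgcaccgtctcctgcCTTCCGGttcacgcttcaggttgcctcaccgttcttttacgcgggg
Cox6a1: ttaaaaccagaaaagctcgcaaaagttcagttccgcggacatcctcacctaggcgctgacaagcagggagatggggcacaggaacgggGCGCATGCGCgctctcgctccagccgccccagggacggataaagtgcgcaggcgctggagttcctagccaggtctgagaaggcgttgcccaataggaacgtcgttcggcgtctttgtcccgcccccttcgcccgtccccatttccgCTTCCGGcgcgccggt
Uqcrh: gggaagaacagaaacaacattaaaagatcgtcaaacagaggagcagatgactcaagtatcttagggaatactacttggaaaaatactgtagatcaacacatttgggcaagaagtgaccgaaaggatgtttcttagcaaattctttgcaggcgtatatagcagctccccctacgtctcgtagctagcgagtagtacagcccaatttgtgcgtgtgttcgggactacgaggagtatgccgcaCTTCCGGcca

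A further 3 belong to genes whose level differed between genotypes below, Atp5s at chr12:69724695-69724944 (plus strand), Sdha at chr13:74350241-74350490 (minus strand) and Cox7b at chrX:106015450-106015699 (plus strand). They have no capitals because none of the letters searched stood in them, and the same was true of all 7 genes with an entry among the 10 called in a comparison of 2 genotypes. No match says only that these letters are not in this window.
Atp5s: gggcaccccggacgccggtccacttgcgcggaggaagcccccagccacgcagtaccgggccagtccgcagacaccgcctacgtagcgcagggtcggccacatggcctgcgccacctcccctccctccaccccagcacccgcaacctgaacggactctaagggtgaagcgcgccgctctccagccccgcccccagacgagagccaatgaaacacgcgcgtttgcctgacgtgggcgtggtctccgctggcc
Sdha: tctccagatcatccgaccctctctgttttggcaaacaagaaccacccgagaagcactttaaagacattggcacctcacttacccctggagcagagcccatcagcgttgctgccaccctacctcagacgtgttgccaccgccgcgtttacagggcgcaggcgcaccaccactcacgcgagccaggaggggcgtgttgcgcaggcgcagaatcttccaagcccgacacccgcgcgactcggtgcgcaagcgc
Cox7b: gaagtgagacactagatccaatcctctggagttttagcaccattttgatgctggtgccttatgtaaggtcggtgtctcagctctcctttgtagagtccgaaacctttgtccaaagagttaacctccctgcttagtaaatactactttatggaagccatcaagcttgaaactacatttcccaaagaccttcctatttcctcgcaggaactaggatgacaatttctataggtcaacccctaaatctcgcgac

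Between genes, levels were compared as mean CPM per kilobase of summed exon length over the 24 libraries. Cox4i1, the common isoform of the regulatory subunit 4 of cytochrome c oxidase, stood highest at 918 CPM per kilobase. Atp5b, the catalytic beta subunit of ATP synthase, followed at 799, then Atp5h (487), a stalk subunit, and Atp5a1 (480), the alpha subunit. Complex I was lower and narrower: its 2 highest genes, Ndufa12 and Ndufb10, reached 239 and 236 CPM per kilobase. In complex II, the catalytic subunits Sdha (185) and Sdhb (177) stood above the membrane anchor Sdhd (64.8), and in complex III the hinge protein gene Uqcrh (404) stood above the core protein gene Uqcrc1 (191).

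**Figure D1:**
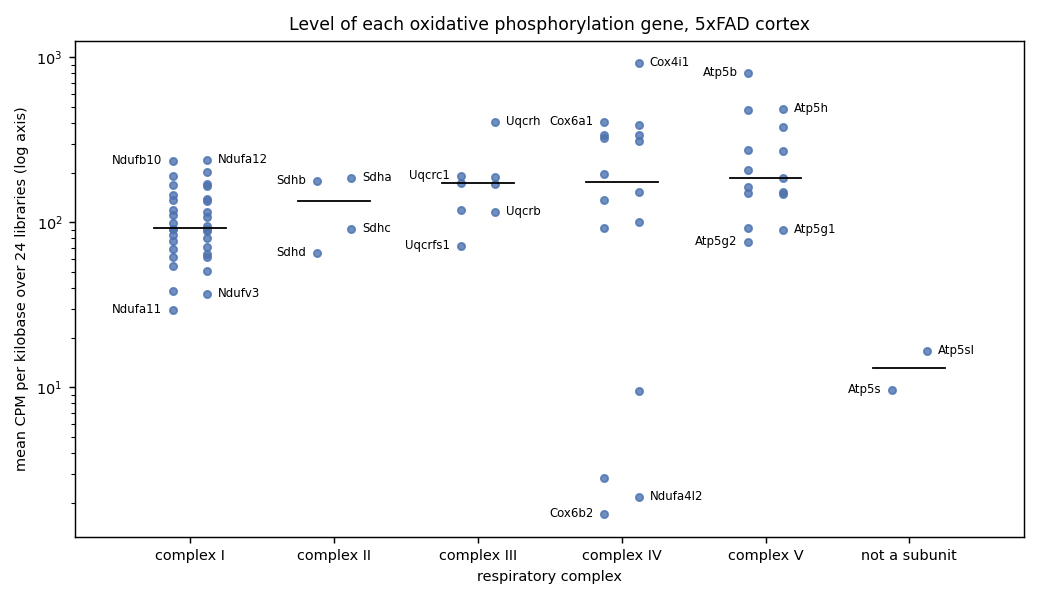
Mean CPM per kilobase of summed exon length over the 24 libraries on a log axis, 1 point per gene, by respiratory complex, with the median of each complex as a line and the highest and lowest genes named. Cox4i1 (918) and Atp5b (799) stand highest, and Cox6b2 (1.71) and Ndufa4l2 (2.16) lowest.

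Isoforms known from other tissues were far below their partners in this cortex. Cox4i2, which is known for its response to low oxygen, measured 2.82 CPM per kilobase beside 918 for Cox4i1. Cox6a2, the heart and muscle isoform, measured 9.48 beside 406 for Cox6a1, and Cox6b2, the testis isoform, measured 1.71 beside 390 for Cox6b1. Ndufa4l2, a paralogue induced by hypoxia, measured 2.16 beside 323 for Ndufa4. Cox7a2 stood at 154, its relative Cox7a2l, a supercomplex assembly factor, at 100, and Cox8a at 337 CPM per kilobase. The 3 genes for the identical ring subunit c were ordered Atp5g3 (377), Atp5g1 (90.2) and Atp5g2 (75.5).

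In the plot of levels by complex these low isoforms form the tail of complex IV. Some levels depend on how reads were assigned. Across the libraries the deposited counts came to 109% of the deposited expected counts over all genes, but to 30.2% for Ndufb4, 54.3% for Atp5g2, 58.1% for Cox7c and 58.8% for Atp5l, and to 179% for Ndufb2. Exons of 9 of the 79 genes also overlapped another gene, Atp5j with Gabpa and Ndufa4l2 with Shmt2 among them, and with no strand setting stated by any source used here, reads in such overlaps cannot be told apart.

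The targeted genes were read first as a check of the labels. Plcg2 ran from 7.72 to 15.2 CPM in WT and from 0.739 to 1.2 CPM in Plcg2KO, and Trem2 from 46.5 to 119 CPM in WT and from 4.59 to 7.45 CPM in Trem2KO. Libraries labelled Plcg2HET held 5.89 to 19.8 CPM of Plcg2, which against WT is a difference of 0.02 on the log2 scale (SE 0.171, adjusted p = 0.951, edgeR), so their counts did not show the lower level that the label implies. Every direction given below for this group is that of the libraries labelled Plcg2HET.

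The libraries held 36.3 to 83.0 M counts (M, 1e6), of which the 79 genes took 0.837% to 1.61%. Summed neuronal markers ran from 9410 to 12415 CPM in WT, 11272 to 12435 in Trem2KO, 11777 to 13968 in Plcg2KO and 10829 to 12994 in Plcg2HET, with 2 of 10 called higher in Trem2KO and 1 of 10 in Plcg2KO and in Plcg2HET. The 4 muscle markers summed to 22.4 to 48.3 CPM over the libraries, with Ckm and Myh6 at or near 0 and Actn2 called higher in Plcg2HET. Microglial markers moved with genotype: their summed level was 1003 to 1713 CPM in WT, 659 to 917 in Trem2KO, 544 to 881 in Plcg2KO and 1042 to 1860 in Plcg2HET, and 8 of 10 were called lower in Trem2KO and 9 of 10 in Plcg2KO. The 10 include Trem2, whose fall in Trem2KO was set by the design and which enters these sums and both counts. Endothelial markers ranged over 60.2 to 112 CPM in WT and 41.7 to 57.1 in Plcg2KO, with 4 of 4 called lower. Astrocyte markers had a median sum of 2562 CPM in WT and 1851 in Plcg2KO (1 of 6 called higher, and Gfap lower), oligodendrocyte markers ran from 4392 to 5060 CPM in WT and 3628 to 4566 in Plcg2KO (1 of 6 called lower), and the 2 precursor markers from 66.1 to 84.2 CPM in WT and 86.3 to 97.3 in Trem2KO (0 called). The ribosomal RNA precursor Rn45s exceeded 5% of counts in Plcg2HET F3 (29.0%), WT F1 (9.59%) and Plcg2HET F1 (5.29%). In bulk cortex, fewer cells of a type and less RNA per cell cannot be told apart, and the part of cell type shares in the results below was not tested.

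All 79 genes passed the count filter. Differences were tested in 1 edgeR quasi-likelihood fit over 16316 genes and all 24 libraries, with a term for sex, and a gene is called at a Benjamini-Hochberg adjusted p under 0.05 over all genes tested. Standard errors (SE) are on the log2 scale, and CPM values are scaled by TMM. With any difference among the 4 genotypes as the question, 19 of the 79 (24.1%) were called, beside a background of 45.7% of all genes tested, and no test compared the set with other genes. The 19 were spread over the complexes: 5 of 34 in complex I, 2 of 4 in complex II, 1 of 8 in complex III, 4 of 16 in complex IV, 5 of 15 in complex V, and both genes that are no subunit.

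In comparisons of 2 genotypes the calls were few. Against WT, 1 of the 79 was called in Plcg2KO (background 13.1% of all genes tested), 0 in Trem2KO (15.7%) and 8 in Plcg2HET (18%), and 4 were called in Plcg2KO against Trem2KO (16.5%). Each of these shares is below its background and is no result about the set. By direction, the call in Plcg2KO was higher (5.44% of all genes were called higher there), those in Plcg2HET were 2 higher (10.9%) and 6 lower (7.13%), and those between the knockouts were 3 higher (7.63%) and 1 lower (8.82%). In Trem2KO the 0 calls stood beside 12 genes with an unadjusted p under 0.05 in edgeR. DESeq2, whose share over all genes is not given here, called 3. The median log2 fold change over the 79 was -0.04 in Plcg2KO, -0.09 in Trem2KO and -0.13 in Plcg2HET against WT, and 0.03 in Plcg2KO against Trem2KO, while the median over all genes tested stayed between -0.02 and 0.00. The comparisons against WT share their 6 WT libraries, and the last one shares its libraries with 2 of them.

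**Figure D2:**
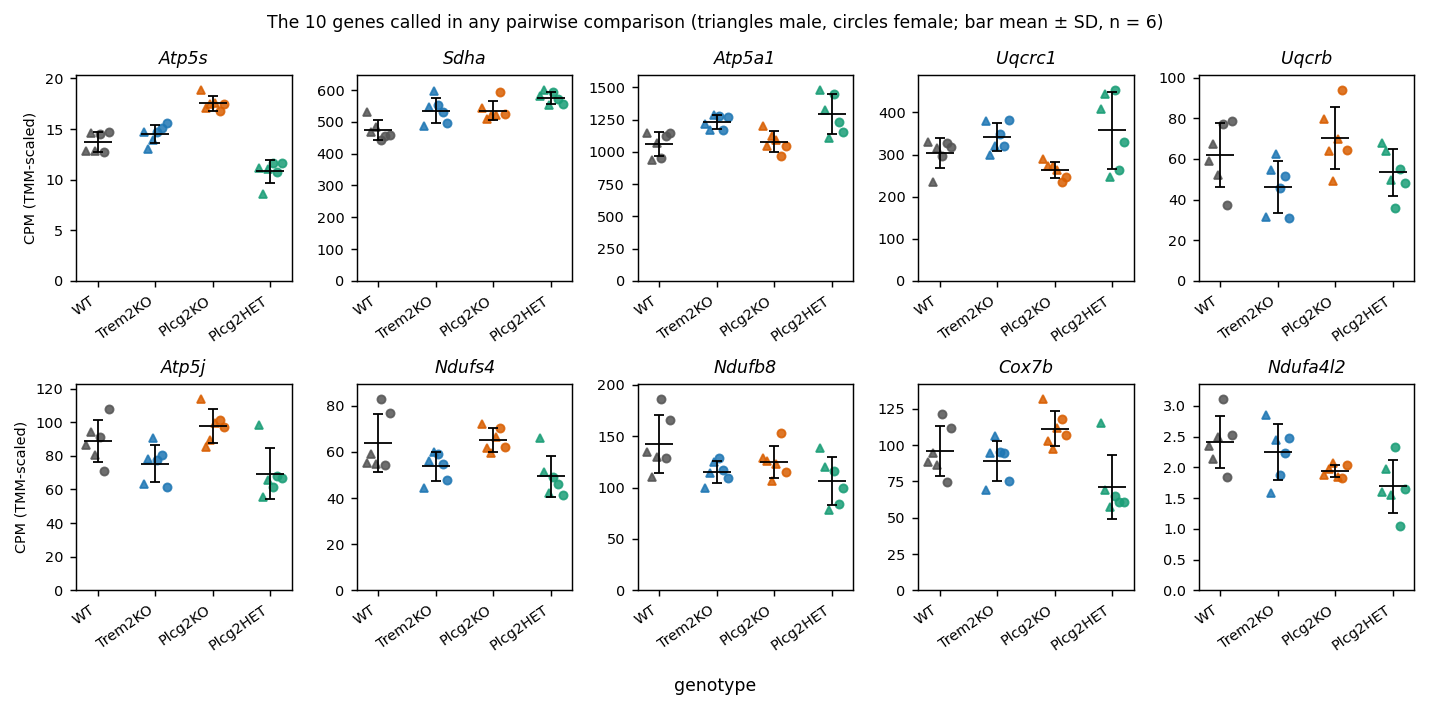
CPM of the 10 genes called in at least 1 comparison of 2 genotypes, in each mouse, by genotype (triangles male, circles female), with the mean and SD of 6 mice as a black bar and whiskers. Atp5s separates Plcg2KO (16.8 to 18.9 CPM) and Plcg2HET (8.59 to 11.7 CPM) from WT (12.8 to 14.7 CPM), and the other genes overlap more between genotypes.

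Atp5s, one of the 2 genes that are no subunit, had the smallest p of the set. It is at chr12:69724962-69744658 (plus strand, mm10, 5 exon intervals). In CPM the lowest, median and highest mouse stood at 12.8, 13.7 and 14.7 in WT, 13.1, 14.7 and 15.6 in Trem2KO, 16.8, 17.5 and 18.9 in Plcg2KO, and 8.59, 11.1 and 11.7 in Plcg2HET. All 6 Plcg2KO mice were above all others, and all 6 Plcg2HET mice were below all others, while WT and Trem2KO overlapped.

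Atp5s rose in Plcg2KO against WT, with a log2 difference of 0.37 (SE 0.080, adjusted p = 0.0026, edgeR), and against Trem2KO, at 0.29 (SE 0.080, adjusted p = 0.0207). In Plcg2HET against WT its log2 fold change was -0.34 (SE 0.081, adjusted p = 0.00481). None of these 3 calls was lost when any 1 library was left out. Atp5s has the lowest GC content of the 79 genes, 39%, and offsets fitted to GC content alone moved its 3 log2 fold changes to 0.20 (adjusted p = 0.186), -0.07 (adjusted p = 0.75) and -0.16 (adjusted p = 0.278), none of them called. Offsets for GC content and length together gave 0.27 (adjusted p = 0.0198), -0.09 (adjusted p = 0.544) and -0.09 (adjusted p = 0.478). Atp5sl, the other gene that is no subunit, was called only in the test over the 4 genotypes (adjusted p = 0.0491), with medians of 38.8 CPM in WT, 41.9 in Trem2KO, 35.4 in Plcg2KO and 44.1 in Plcg2HET.

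Complex I showed no called gene in either knockout against WT or in Plcg2KO against Trem2KO, and 2 of its 34 genes fell in Plcg2HET. Both are accessory subunits. Ndufs4, needed for assembly of the NADH-oxidising module and known from a mouse model of Leigh syndrome, had its lowest, median and highest mouse at 54.2, 57.2 and 82.8 CPM in WT and 41.2, 47.6 and 65.9 CPM in Plcg2HET. The ranges overlapped, with Plcg2HET M1 at the top of its group and WT F1 at the top of the controls. Its log2 fold change was -0.37 (SE 0.121, adjusted p = 0.0347, edgeR).

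Ndufb8, a subunit of the membrane arm, stood at 110, 132 and 186 CPM in WT and at 77.8, 108 and 139 CPM in Plcg2HET, again with overlap. Its log2 fold change was -0.42 (SE 0.130, adjusted p = 0.0272, edgeR). Both calls were lost without WT F1, WT F3 or Plcg2HET F3. The Ndufs4 call was also lost without Plcg2HET F1 and the Ndufb8 call without Plcg2HET F2, and the highest adjusted p over these single omissions was 0.112 for Ndufs4 and 0.0905 for Ndufb8. With offsets for GC content and length, Ndufb8 stayed called at -0.39 (adjusted p = 0.000426) and Ndufs4 moved to -0.14 (adjusted p = 0.379).

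Among the core subunits of complex I, Ndufv1, which binds NADH and the flavin, differed over the 4 genotypes (adjusted p = 0.00741, edgeR). Its median was 233 CPM in WT, 246 in Trem2KO, 196 in Plcg2KO and 286 in Plcg2HET. No comparison of 2 genotypes was called for it, and the nearest was Plcg2KO against Trem2KO at -0.37 (SE 0.130, adjusted p = 0.0539), with 147 to 219 CPM in Plcg2KO and 227 to 261 in Trem2KO and no overlap. The abundant accessory genes Ndufa12 and Ndufb10 ranged from 67.9 to 239 CPM and from 97.7 to 236 CPM over all mice, both ends lying in Plcg2HET, and neither was called over the genotypes (adjusted p = 0.992 and 0.278).

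In complex II the flavoprotein gene Sdha, whose product oxidises succinate, was higher in Plcg2HET. Its lowest, median and highest mouse stood at 442, 464 and 531 CPM in WT, 488, 538 and 596 in Trem2KO, 510, 524 and 594 in Plcg2KO, and 554, 576 and 601 in Plcg2HET. Plcg2HET did not overlap with WT. The log2 fold change was 0.28 (SE 0.071, adjusted p = 0.00745, edgeR), no single library removed the call, and with offsets for GC content and length it was 0.33 (adjusted p = 0.000838). Without both WT F1 and WT F3 the call was lost at 0.25 (adjusted p = 0.0535), as it was without the 3 libraries with over 5% Rn45s, at 0.27 (adjusted p = 0.0638). In Trem2KO and Plcg2KO against WT the log2 fold changes of Sdha were 0.18 (adjusted p = 0.0929) and 0.17 (adjusted p = 0.107), which did not pass.

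Sdhd, a membrane anchor of complex II, differed over the 4 genotypes (adjusted p = 0.00782, edgeR) without passing in any comparison of 2. It ran from 73 to 90.9 CPM in WT, 88.4 to 99.5 in Trem2KO, 60.1 to 102 in Plcg2KO and 51.7 to 81.7 in Plcg2HET, so that Trem2KO lay wholly above Plcg2HET. Sdhb, the iron-sulfur subunit, spread from 96.4 CPM in Plcg2HET M3 to 323 CPM in Plcg2HET M1, and its log2 fold change in Plcg2HET was 0.39 (SE 0.225, adjusted p = 0.244). Sdhc, the other anchor, stayed between 80.5 and 130 CPM and was not called (adjusted p = 0.783 over the genotypes).

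In complex III 2 of 8 genes were called, both between the knockouts and in opposite directions. Uqcrb, a small subunit near the ubiquinone site, stood at 31.2, 48.7 and 62.6 CPM in Trem2KO and at 49.1, 67.2 and 94 CPM in Plcg2KO, with overlap, and with Trem2KO F3 lowest and Plcg2KO F1 highest. Its log2 fold change, 0.60 (SE 0.191, adjusted p = 0.0346, edgeR), was the highest of the set in this comparison. Uqcrc1, a core protein of the complex, stood at 299.7, 336 and 381 CPM in Trem2KO and at 235, 268 and 290 CPM in Plcg2KO, without overlap, and its log2 fold change was -0.38 (SE 0.129, adjusted p = 0.0451).

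Both complex III calls were easily lost. Uqcrb lost its call in 7 of 24 omissions of a single library (Trem2KO M1, F1 and F3, Plcg2KO M1, M4, F1 and F2, adjusted p up to 0.117), and Uqcrc1 lost its call in 14 (WT M1 and M3, Trem2KO M1, M3, F1, F2 and F3, all 6 Plcg2KO mice, and Plcg2HET F3, adjusted p up to 0.113). With offsets for GC content and length the log2 fold changes were 0.22 for Uqcrb (adjusted p = 0.242) and -0.13 for Uqcrc1 (adjusted p = 0.17). Without WT F1 and WT F3, which belong to neither group, the adjusted p of Uqcrc1 was 0.0599. Uqcrh, the most abundant gene of the complex per kilobase, ranged from 101 CPM in Plcg2HET M3 to 300.1 CPM in Plcg2HET M1 and did not pass over the genotypes (adjusted p = 0.649).

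Complex IV had 2 of 16 genes called, both lower in Plcg2HET. Cox7b, a small nuclear subunit needed for assembly of the complex, stood at 74.8, 91.4 and 121 CPM in WT, 69.4, 94.4 and 106 in Trem2KO, 97.4, 109 and 132 in Plcg2KO, and 57.2, 62.8 and 115 in Plcg2HET. In Plcg2HET 5 mice lay between 57.2 and 68.7 CPM and M1 alone reached 115. The log2 fold change was -0.44 (SE 0.148, adjusted p = 0.0405, edgeR) and -0.15 with offsets for GC content and length (adjusted p = 0.37). Leaving out WT M2, WT F1, WT F3, Plcg2KO F2 or any Plcg2HET mouse other than M1 lost the call, with adjusted p up to 0.119.

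Ndufa4l2 was the other, at 1.84, 2.42 and 3.11 CPM in WT and 1.04, 1.63 and 2.33 CPM in Plcg2HET, with overlap. Its log2 fold change was -0.51 (SE 0.171, adjusted p = 0.0386, edgeR) and -0.57 with both offsets (adjusted p = 0.00649). Exons of Ndufa4l2 overlap those of Shmt2, by an extent that was not measured. The call was lost without WT M1, WT M3, WT F1, WT F3, or Plcg2HET M1, M3, F2 or F3, with adjusted p up to 0.11. Cox6a2 differed over the 4 genotypes (adjusted p = 0.0116), with medians of 6.12 CPM in WT, 4.85 in Trem2KO, 5.16 in Plcg2KO and 7.74 in Plcg2HET, and in Trem2KO against WT it came nearest of the set to a call (log2 fold change -0.53, SE 0.192, adjusted p = 0.0586).

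Of the common isoforms of complex IV, Ndufa4 alone passed over the genotypes. Cox4i1 had medians of 667 CPM in WT, 777 in Trem2KO, 688 in Plcg2KO and 703 in Plcg2HET (adjusted p = 0.672 over the genotypes, edgeR), and it lies on chromosome 8, the chromosome that also carries Plcg2. For Cox6a1, Cox6b1, Cox7a2, Cox7a2l and Cox8a the adjusted p over the genotypes was 0.954, 0.24, 0.4, 0.151 and 0.463, and in Plcg2HET against WT the log2 fold change of Cox6b1 was -0.30 (SE 0.160, adjusted p = 0.196). Ndufa4 (adjusted p = 0.0229) had medians of 153, 159, 185 and 119 CPM in WT, Trem2KO, Plcg2KO and Plcg2HET and passed in no comparison of 2. The low isoforms Cox4i2 and Cox6b2 did not pass (adjusted p = 0.087 and 0.43).

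Complex V had 2 of 15 genes called in Plcg2HET against WT, in opposite directions, and 1 in Plcg2KO against Trem2KO. Atp5a1, which carries the alpha subunit of the catalytic head, stood at 935, 1094 and 1148 CPM in WT, 1168, 1244 and 1282 in Trem2KO, 965, 1069 and 1202 in Plcg2KO, and 1111, 1278 and 1480.5 in Plcg2HET. The ranges of WT and Plcg2HET overlapped between 1111 and 1148 CPM. The log2 fold change in Plcg2HET was 0.28 (SE 0.084, adjusted p = 0.0201, edgeR) and 0.27 with both offsets (adjusted p = 0.00636), and the call was lost without WT M2, WT F1, Plcg2HET M1 or Plcg2HET F1, with adjusted p up to 0.071. Its catalytic partner Atp5b had medians of 1384 CPM in WT, 1636 in Trem2KO, 1328 in Plcg2KO and 1603 in Plcg2HET and passed over the genotypes (adjusted p = 0.0328) but in no comparison of 2.

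Atp5j, which encodes coupling factor 6 of the stator stalk, was lower in Plcg2HET than in WT and higher in Plcg2KO than in Trem2KO. Its lowest, median and highest mouse stood at 71.3, 88.8 and 108 CPM in WT, 61.6, 77.7 and 90.5 in Trem2KO, 85, 98.5 and 114 in Plcg2KO, and 55.7, 66.5 and 98.7 in Plcg2HET. As for Cox7b, Plcg2HET M1 lay far above the other 5 mice of its group, which stayed at or under 68.1 CPM. The log2 fold changes were -0.35 in Plcg2HET against WT (SE 0.124, adjusted p = 0.0471, edgeR) and 0.37 in Plcg2KO against Trem2KO (SE 0.124, adjusted p = 0.0418).

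The first of the Atp5j calls was lost in 15 of 24 single omissions (WT M1, M2, F1 and F3, Trem2KO M2, M3, F1 and F2, Plcg2KO M3, M4 and F2, and Plcg2HET M2, M3, F1 and F3, adjusted p up to 0.134). The other was lost in 10 (WT M1 and F1, Trem2KO M1, M2, F1 and F3, and Plcg2KO M1, M4, F1 and F2, adjusted p up to 0.119). With both offsets they were -0.32 (adjusted p = 0.131) and 0.51 (adjusted p = 0.0428). Exons of Atp5j overlap those of Gabpa, and Gabpa itself differed between the knockouts by 0.58 (log2, Plcg2KO minus Trem2KO, SE 0.117, adjusted p = 0.00499). Gabpa ran from 12.5 to 14.9 CPM in Trem2KO and from 17.1 to 22.9 CPM in Plcg2KO.

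Among other stalk subunits, Atp5f1, the b subunit, passed over the genotypes (adjusted p = 0.00896, edgeR) with medians of 249, 282, 293 and 208 CPM in WT, Trem2KO, Plcg2KO and Plcg2HET, and Atp5h did not (adjusted p = 0.565). The 3 genes for subunit c, Atp5g1, Atp5g2 and Atp5g3, did not pass (adjusted p = 0.38, 0.586 and 0.824). Atp5k, the small e subunit, varied most between mice of 1 genotype: its SD of log2(CPM + 0.5) was 0.74 in WT, 0.95 in Trem2KO and 0.44 in Plcg2KO, the highest of the 79 genes in each of these groups. It ran from 23.1 CPM in Trem2KO M1 to 134 CPM in WT F3.

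Summarised by complex, the level in a library was the mean over the complex's genes of log2(CPM + 0.5), set against the WT mean. Complexes I, III, IV and V went up and down together from mouse to mouse, and the mice of 1 genotype differed more than the genotype means. In complex I, WT ran from -0.25 in M2 to 0.37 in F3 (SD 0.25, n = 6), Trem2KO from -0.33 to 0.05, Plcg2KO from -0.22 to 0.12, and Plcg2HET from -0.60 in M3 to 0.36 in M1 (SD 0.38). Their means were -0.11 in Trem2KO, -0.07 in Plcg2KO and -0.10 in Plcg2HET, each smaller than the SD among WT mice.

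**Figure D3:**
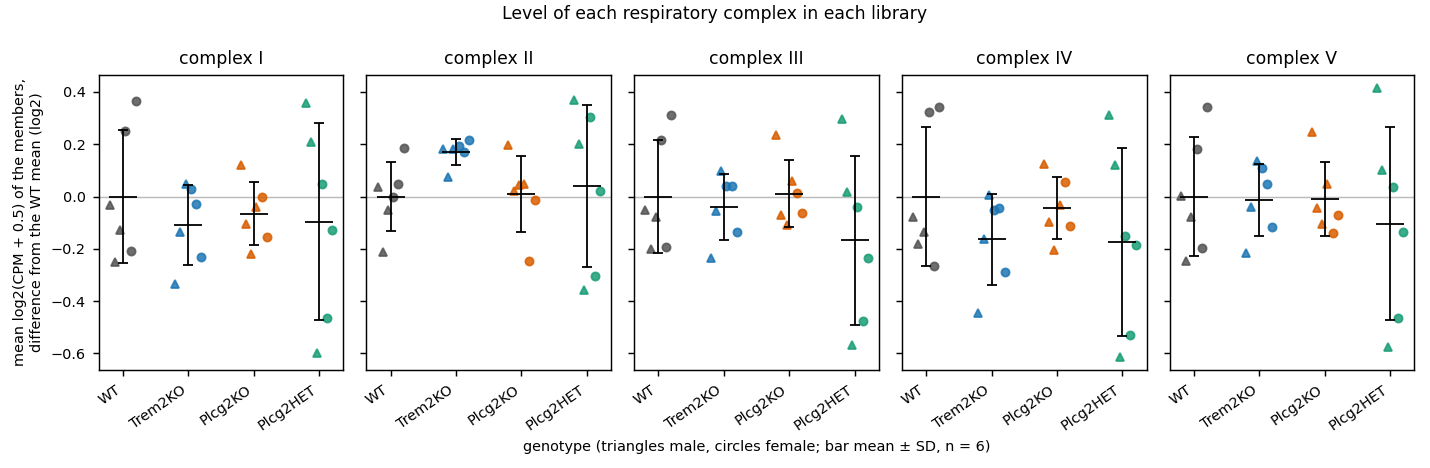
Mean log2(CPM + 0.5) of the genes of each complex in each mouse, as a difference from the WT mean, by genotype (triangles male, circles female), with the mean and SD of 6 mice in black. Plcg2HET M3 and F2 lie lowest in every complex, and all 6 Trem2KO mice lie above the WT mean in complex II.

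Complex III and complex V showed the same mice at the ends. Plcg2HET M3 stood at -0.57 in complex III, -0.61 in complex IV and -0.58 in complex V, with Plcg2HET F2 next at -0.48, -0.53 and -0.46. At the other end were Plcg2HET M1, at 0.30, 0.31 and 0.42, and WT F3, at 0.31, 0.34 and 0.34, while WT F1, at 0.21, 0.32 and 0.18, exceeded Plcg2HET M1 in complex IV. In complex II, too, Plcg2HET M3 (-0.36) and F2 (-0.30) were lowest and Plcg2HET M1 (0.37) was highest. Trem2KO departed from the other complexes there: all 6 mice lay between 0.07 and 0.22 above the WT mean (mean 0.17, SD 0.05). WT itself ran from -0.21 to 0.18. In Trem2KO M1 complex II stood at 0.18 and complex IV at -0.45. No test was made of these summaries, which rest on chosen genes.

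The spread within a genotype was wider for the set than for genes in general. The median SD over 6 mice of log2(CPM + 0.5) was 0.28 for the 79 genes and 0.19 for all genes tested in WT, 0.16 and 0.14 in Trem2KO, 0.19 and 0.15 in Plcg2KO, and 0.38 and 0.29 in Plcg2HET. Standard errors were accordingly larger, with a median SE of 0.16 for the set against 0.13 for all genes tested in each of the 4 comparisons. Against WT, every fold change of the set was under 1.5-fold.

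Length and base composition were examined because trends with them ran through whole libraries. The 79 genes are short: their median summed exon length was 727 bases against 2858 for all genes tested, 77 of 79 were shorter than that, and 65.8% were under 1000 bases against 7.86%. Their GC content was close to that of other genes, with a median of 51.7% against 50.4%. In each library, deviations of the 16237 tested genes outside the set were ranked against length and against GC content. The trend with length, a Spearman correlation across genes, was -0.46 in WT F3, -0.43 in WT F1 and -0.28 in Plcg2HET M1, where the 79 genes stood high, and 0.44 in Plcg2HET M3 and 0.41 in Plcg2HET F2, where they stood lowest.

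**Figure D4:**
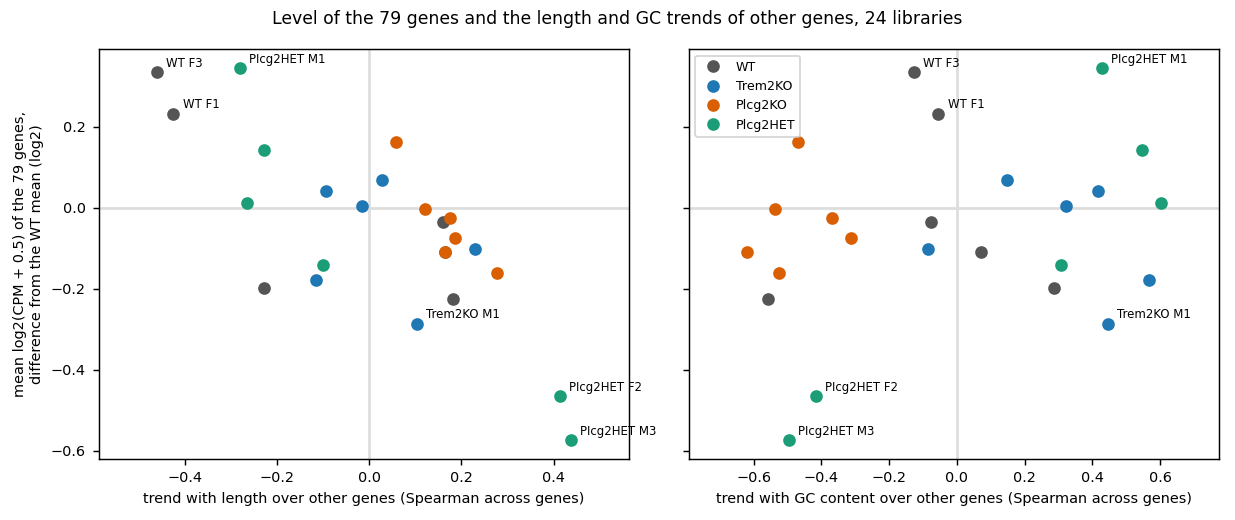
Level of the 79 genes in each of the 24 libraries (mean log2(CPM + 0.5), difference from the WT mean) against the trend with length (left) and with GC content (right) over genes outside the set, each a Spearman correlation across genes. WT F1, WT F3 and Plcg2HET M1 lie at the upper left of the length panel and Plcg2HET M3 and F2 at its lower right.

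Not every library followed that order: WT F2 had a length trend of -0.23 with the 79 genes at -0.20, and Trem2KO M1 a trend of 0.10 with the genes at -0.29. The trend with GC content lay between -0.62 and -0.31 in Plcg2KO, all 6 libraries being negative, and between -0.09 and 0.57 in Trem2KO, with 5 positive. Among the Plcg2HET libraries M3 (-0.50) and F2 (-0.42) were negative and the other 4 lay between 0.31 and 0.60. The plot of library levels against these trends shows the 2 knockouts apart along the GC axis, WT and Plcg2HET overlapping with both of them there, and the genotypes mixed along the length axis. How far these trends account for the differences was not tested, but offsets fitted to both over all genes were run as an alternative.

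**Figure D5:**
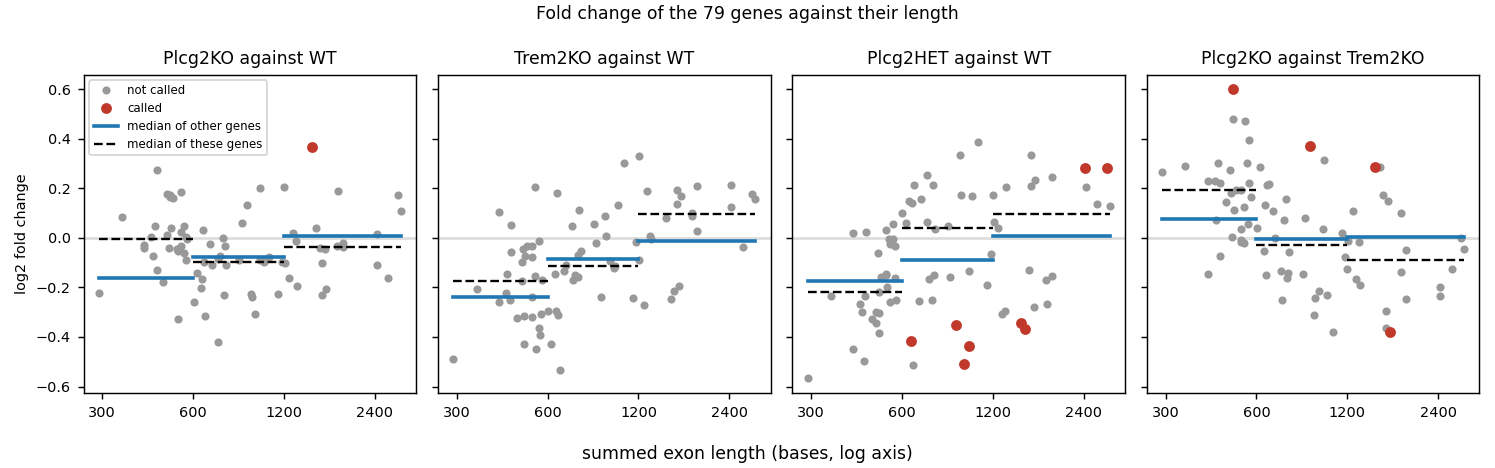
Log2 fold change of each of the 79 genes in the 4 comparisons against summed exon length on a log axis, called genes in red, with the median of the set (dashed) and of genes outside it (blue) in 3 length ranges. In Trem2KO and Plcg2HET against WT both medians are lowest under 600 bases, and in Plcg2KO against Trem2KO they are highest there.

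Within the set, fold changes were ordered by length in 3 of the 4 comparisons. Spearman's rho across the 79 genes, which share libraries and are not independent replicates, was -0.09 in Plcg2KO, 0.52 in Trem2KO and 0.40 in Plcg2HET against WT, and -0.51 in Plcg2KO against Trem2KO. Over the 16237 tested genes outside the set it was 0.27, 0.15, 0.12 and 0.10 in that order. The set thus had the opposite sign in Plcg2KO against WT and between the knockouts. In Trem2KO the 29 genes under 600 bases had a median log2 fold change of -0.17 and the 22 genes over 1200 bases one of 0.09. Genes of the same lengths outside the set had medians of -0.24 and -0.01. In Plcg2HET the same 2 ranges gave -0.22 and 0.10 for the set and -0.18 and 0.01 outside it, and in Plcg2KO against Trem2KO 0.19 and -0.09 for the set and 0.08 and 0.00 outside it. With GC content, rho across the 79 was -0.55, -0.03, 0.31 and -0.34 in the 4 comparisons in that order. Outside the set it was -0.33, 0.36, 0.35 and -0.66.

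The core and accessory parts of complex I differed in length, with median lengths of 1606 and 635 bases, and also in median fold change. In Trem2KO the 7 core genes had a median log2 fold change of 0.13 and the 27 accessory genes one of -0.17, and in Plcg2HET the values were 0.17 and -0.15. In Plcg2KO they were -0.10 and -0.06, against a median of 0.00 over all genes tested. None of the core genes was called in any comparison of 2 genotypes. Sdha and Atp5a1, the 2 genes that were higher in Plcg2HET, are among the longest of the set, at 2859 and 2431 bases. Of the 6 that were lower there, Ndufs4 (1534 bases), Atp5s (1485), Cox7b (1001), Ndufa4l2 (964) and Atp5j (903) are also longer than the set's median of 727 bases, and Ndufb8 (641) is shorter.

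Over the 16237 other genes, the offsets for GC content and length brought the correlations of fold change with either property to between -0.01 and 0.02. Within the 79 genes they did not remove them: rho with length became -0.25, 0.25, 0.26 and -0.43 in the 4 comparisons, and rho with GC content -0.09, -0.47, -0.14 and 0.40.

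With these offsets, the level of complex I in WT mice ran from -0.12 to 0.11 (SD 0.09) and in Plcg2HET from -0.16 to 0.21 (SD 0.15), so both spreads narrowed. The calls against WT became 3 of 79 in Plcg2KO (background 19.9%), 16 in Trem2KO (20.1%), 12 of them higher, and 14 in Plcg2HET (22.7%), 7 of them higher. In Plcg2KO against Trem2KO 5 were called (5.84%), and 30 over the 4 genotypes (48.3%). Complex II stood above WT in Trem2KO, at 0.25 (SD 0.04), and complexes III and V moved from -0.04 and -0.01 to 0.12 and 0.10. The share called in Trem2KO was close to the background share under the same offsets.

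The count in Plcg2HET also turned on single mice. Without Plcg2HET M1 it was 18 genes, 17 of them lower (background 15.1% of all genes), and without Plcg2HET M3 it was 12, 9 of them higher (26.7%). Without WT F1 it was 2 (12.8%), without WT F3 3 (13.6%), without Plcg2HET F3 3 (15.3%), without Plcg2HET F1 4 (11.9%), and without Plcg2HET F2 9, of which 6 were higher (24.3%). Leaving out Plcg2HET M3 and F2 together, chosen after the data were seen, gave 23 called genes, 21 of them higher, against a background of 44.2%, and moved the median from -0.13 to 0.06. The fit shares 1 spread over all libraries, and the same omission gave 8 calls in Trem2KO against WT (background 25%), 2 in Plcg2KO against WT (22.7%), 11 between the knockouts (33%) and 34 over the genotypes (67.1%). Without WT F1 and F3 together, also chosen then, 1 gene was called (background 7.54%) and the median was 0.08. Fitted on the 2 groups compared alone, without the other 12 mice, the counts were 12 in Trem2KO against WT (29.9%), 1 in Plcg2KO (22.3%), 0 in Plcg2HET (4.68%) and 19 between the knockouts (42.1%).

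Males and females did not give the same medians. In males alone the median log2 fold change of the 79 genes against WT was 0.12 in Plcg2KO, 0.05 in Trem2KO and 0.19 in Plcg2HET, and in females alone it was -0.22, -0.17 and -0.39. WT F1 and WT F3, the WT mice with the highest levels, are both female. The difference between female and male effects was tested gene by gene as an interaction in edgeR: 0 of 79 genes were called in any of the 4 comparisons, and 8, 1, 16 and 1 had an unadjusted p under 0.05 (Plcg2KO, Trem2KO and Plcg2HET against WT, and Plcg2KO against Trem2KO). Over all 16316 genes 0% were called in these interactions. Males against females, 0 of 79 were called and 2 had an unadjusted p under 0.05, against a background of 2.37% called.

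Other genes of the pathway, which the name rule leaves out, were counted in the same fit. The shares of all genes called there are 13.1%, 15.7% and 18% against WT (Plcg2KO, Trem2KO and Plcg2HET) and 16.5% between the knockouts. Of 44 tested assembly factors of the complexes, 0 were called in Plcg2KO, 1 in Trem2KO and 10 in Plcg2HET against WT, and 3 in Plcg2KO against Trem2KO, where all 3 were higher. In Plcg2HET 9 of the 10 were lower, among them the copper chaperone gene Cox17 (log2 fold change -0.62, adjusted p = 0.0312, edgeR) and the complex III factor gene Lyrm7 (-0.40, adjusted p = 0.00997). Cox10, whose product takes part in making heme A, was higher (0.39, adjusted p = 0.0129). At 10 of 44 that share lay above the background of 18%. By direction, 9 of the 44 were called lower, beside 7.13% of all genes tested, and 1 higher, beside 10.9%. No test compared the list with other genes. The median over the 44 was -0.14, close to that of the subunits.

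Cycs, cytochrome c, which carries electrons from complex III to complex IV, fell in Trem2KO against WT, where its log2 fold change was -0.40 (SE 0.111, adjusted p = 0.0144, edgeR), and was higher in Plcg2KO than in Trem2KO, at 0.39 (SE 0.112, adjusted p = 0.0235). It was 1 of 6 tested carriers and subunits that the name rule misses, and the only one called in a comparison of 2 genotypes. Of 17 genes of the tricarboxylic acid cycle and pyruvate dehydrogenase, Ogdh rose in Trem2KO (0.38, adjusted p = 0.0373) and in Plcg2HET (0.58, adjusted p = 0.00267), and Mdh2 rose in Plcg2HET (0.34, adjusted p = 0.0465). None of the 17 was called in Plcg2KO against WT or against Trem2KO.

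Among 12 regulators of mitochondrial genes, Pprc1, a coactivator of the PGC-1 family, rose in all 3 genotypes against WT: by 0.43 in Plcg2KO (adjusted p = 0.0403, edgeR), 0.60 in Trem2KO (adjusted p = 0.00423) and 0.56 in Plcg2HET (adjusted p = 0.00763), values that share their WT libraries. Gabpa rose in Plcg2KO by 0.38 (adjusted p = 0.0291), and Gabpb1, which encodes its partner in GABP, fell in Trem2KO by 0.42 (adjusted p = 0.0104) and was 0.36 higher in Plcg2KO than in Trem2KO (adjusted p = 0.0326). In Plcg2HET the mitochondrial RNA polymerase gene Polrmt (0.47, adjusted p = 0.014) and the coactivator gene Ppargc1b (0.49, adjusted p = 0.0195) also rose. In all, 2 of the 12 were called in Plcg2KO, 2 in Trem2KO and 3 in Plcg2HET against WT, and 2 between the knockouts. Of 77 genes for mitochondrial ribosomal proteins, 2 were called in Plcg2KO, 3 in Trem2KO and 5 in Plcg2HET against WT, and 7 in Plcg2KO against Trem2KO, each a smaller share than that of all genes tested. Their median log2 fold changes were -0.03, -0.03, -0.05 and 0.00.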

How the data were processed

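Whole-number read counts per gene were deposited together with each gene's exons and their summed length, per the file headers. Tools named in the submitters' processing notes are featureCounts 2.0.3 and STAR 2.7.10a, with the build mm10. A further deposited table holds expected counts, TPM and FPKM, per the file headers. No source used here states the tool behind it or the strand setting. TPM and FPKM were not used, and expected counts, rounded to whole numbers, served 1 alternative fit and the ratios of counts to expected counts.

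Genes were kept by filterByExpr (minimum count 10, by genotype). A robust quasi-likelihood model with TMM scaling and terms for genotype and sex was fitted over 24 libraries (edgeR 4.0.16, limma 3.58.1, R 4.3.3). Complex levels are means of log2(CPM + 0.5). GC content came from reference transcripts, matched by RefSeq accession, or by symbol where no accession matched. The fit was tested on counts simulated with known changes in Plcg2KO against WT. It recovered 5 of 67 changes of 1.25-fold, 45 of 67 of 1.5-fold and 64 of 66 of 2-fold. Of its 119 calls there, 5 were false. Genes were simulated independently of each other, with no sex difference and no trend with GC content or length. The rates therefore hold for such counts and were not measured for libraries with those trends. Alternatives were RLE, no filter, no sex term, the replicate block, each sex, only the groups compared, DESeq2 1.42.0, expected counts, offsets for GC content and length (splines with 5 degrees of freedom), no Rn45s-rich libraries, and single omissions.

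The members and lists were chosen with earlier results of these data known. Genes named are the 2 most abundant per kilobase and the 2 with the smallest p over the genotypes in each complex, up to 5 called per comparison and direction, isoform sets, and rows beside the CPM threshold. Others were named after their values were seen. Each library is 1 mouse per the labels, and total counts were 36.3 to 83.0 M (1e6).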

Additional observations from a re-analysis of the deposited data

Results flagged for a closer look

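A mouse stood apart from the other 5 of its genotype, by Dixon's test at the 95% level, in 12 of 148 groups of 6 tested, where chance alone gives about 7.4 (1 in 20). In Plcg2HET, M1 was the high mouse for Cox7b (115 CPM against at most 68.7), Atp5j (98.7 against at most 68.1), Ndufa4 (193 against at most 129) and Cox6b2 (2.58 against at most 1.26), and M2 was the low mouse for Atp5s (8.59 against at least 10.8). In WT, F3 was high for Atp5g3 (361 CPM against at most 279) and Cox6b2 (1.92 against at most 1.17), F1 was high for Cox8a (223 against at most 191), and M2 was low for Uqcrc1 (235 against at least 298). In Plcg2KO, F2 was low for Cox4i2 (0.923 CPM against at least 1.59) and F1 was high for Cox6a2 (7.84 against at most 5.28). For complex II as a whole, Trem2KO M2 stood lowest of its genotype at 0.0749 (log2, difference from the WT mean) against at least 0.169 in the other 5.

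Ndufs5, a subunit of complex I, is listed at 0 counts in all 24 libraries, while the deposited expected counts hold 24578 for it over the same libraries. Its exons overlap BC002163, and it entered no comparison.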

How the results depend on the processing

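In every comparison the count of called genes moved by over 1.5 times under some settings, while under others it did not. The share of all genes called moved with the setting too. In Plcg2HET against WT it was 18% at first and 4.68% with only the groups compared. It was 22.7% with both offsets, 44.2% without Plcg2HET M3 and F2, and 7.54% without WT F1 and F3. The counts below are given without that share, so they are no result about the set. In Plcg2KO against WT (1 called) the count was 0 in males alone, in females alone and with offsets for GC content, 2 with DESeq2 and without Plcg2HET M3 and F2, 6 with offsets for length and 3 with both offsets. In Trem2KO against WT (0 called) it was 1 in females alone, 12 with only the groups compared, 3 with DESeq2, 8 with offsets for GC content and without Plcg2HET M3 and F2, 6 with offsets for length and 16 with both. In Plcg2HET against WT (8 called, 2 higher) it was 0 in males alone and with only the groups compared, 2 in females alone, 18 (9 higher) with offsets for length, 14 (7 higher) with both, 1 without the 3 Rn45s-rich libraries, 23 without Plcg2HET M3 and F2, and 1 without WT F1 and F3. In Plcg2KO against Trem2KO (4 called, 3 higher) it was 0 in either sex alone, 19 (8 higher) with only the groups compared, 7 with DESeq2, 2 with offsets for GC content, 12 with offsets for length, and 11 (3 higher) without Plcg2HET M3 and F2. Over the 4 genotypes (19 called) it was 1 in males, 4 in females, 35 with offsets for length, 30 with both, 9 without the Rn45s-rich libraries and 34 without Plcg2HET M3 and F2. The cause was not tested, except that single-sex fits hold fewer samples.

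Single omissions gave 1 to 1, 0 to 1, 2 to 18, 1 to 7 and 11 to 23 called genes in these comparisons, in that order. The median log2 fold change then ran from -0.11 to 0.03 in Plcg2KO, -0.13 to 0.00 in Trem2KO and -0.23 to -0.03 in Plcg2HET against WT, and from -0.02 to 0.08 between the knockouts. In Plcg2HET it was 0.19 in males and -0.39 in females. Atp5s in Plcg2KO against Trem2KO reversed to -0.0681 with offsets for GC content and to -0.0907 with both.

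Shared replicate codes did not pair the mice. Deviations of same-code mice correlated at -0.26 to 0.19 over 33 pairs, 4 of them over 0.1, and 3 of 24 libraries matched best with their own code. With the replicate block in place of sex, 0 genes were called between the knockouts, 12 over the genotypes and 6 in Plcg2HET. By mean CPM the 2 lowest genes, Cox6b2 and Cox4i2, rest on the fewest reads, and Ndufa4l2 is next at 2.08 CPM.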
